A study of Homo sapiens with 8 samples.

Results

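The main effect of bFGF on gene expression in human embryonic stem cells was measured by setting 4 arrays with bFGF against 4 arrays without it, which are all 8 arrays of the series. The arrays with bFGF were the 2 +bFGF arrays, from cells given bFGF (FGF2) at 24 ng/ml, and the 2 +IL-11+bFGF arrays, from cells given the same dose together with the cytokine IL-11 at 10 ng/ml. The arrays without bFGF were the 2 −bFGF arrays, from cells given neither factor, and the 2 +IL-11 arrays, from cells given IL-11 alone at 10 ng/ml. All cells grew in N2B27 medium on Matrigel, a layer of extracellular matrix without mouse feeder cells, and the study's text puts the time without bFGF at 5 days. The labels name the line H1 and the study's text names H9 for this experiment, both established human embryonic stem cell lines. Nothing in the labels or methods tells whether replicate arrays stand for separate cultures or for one culture measured again. The p-values therefore cover only array-to-array spread, part or all of which may be technical, and the number of arrays limits the precision.

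The split by bFGF asks for more than the comparison of a single pair of conditions. Each side has 4 arrays, IL-11 enters the fit as a covariate, and a change has to be seen both in the absence and in the presence of IL-11 to separate the sides. All levels are log2 normalized intensities of Illumina probes, and a difference of 1 on this scale is a 2-fold change. A gene was called where limma gave a Benjamini-Hochberg adjusted p under 0.05 over all 9269 genes tested. A gene was named only where, in addition, the 4 values with bFGF lay entirely above or entirely below the 4 values without it, apart from the 3 pluripotency factors, 3 genes of the interaction test and a few list members that are said to overlap or not to pass. Levels of different genes were not compared with each other, because each probe has its own brightness.

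bFGF is the growth factor that human embryonic stem cell cultures are usually given to remain undifferentiated. It binds FGF receptors together with heparan sulfate on the cell surface, and the receptors act through the adaptors FRS2 and GRB2, the RAS, RAF, MEK and ERK relay, and PI3 kinase. ERK enters the nucleus and acts on transcription factors of the ETS and AP-1 families. When FGF signaling is withdrawn, human embryonic stem cells are known to move towards neural and other differentiated fates, and cultures without feeders also hold fibroblast-like support cells that arise from the stem cells themselves.

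The arrays were similar in depth. Between 10983 and 11761 of 24526 probes were detected per array (44.8% to 48.0%), and the raw median intensities were 113 to 121. POU5F1 (OCT3/4) was 2.37-fold higher and NANOG 1.75-fold higher with bFGF (adjusted p = 8.77e-06 and 7.03e-05), and SOX2 differed by 0.03 ± 0.05 log2 (SE, adjusted p = 0.749) with all 8 values between 11.97 and 12.14. All 12 undifferentiated stem cell markers on the array passed the detection filter, and 7 rose and 3 fell. Marker counts are to be read against all genes tested, of which 14.7% rose and 15.7% fell. Markers of other cell types also moved with bFGF: 9 of 9 tested neural crest and sensory neuron markers and 10 of 11 neuroectoderm markers fell, with summed intensities of 2970 to 4090 with bFGF against 8070 to 9820 without for the first list and of 18100 to 20100 against 25600 to 30700 for the second. The defining markers NEUROG1, NGFR and PRDM12 of the first list, and SOX1, SIX3, LHX2 and ZIC1 of the second, were detected on no array. Of 13 tested fibroblast-like support cell markers 6 fell and 3 rose, THY1 among those that rose, and their summed intensity was 42800 to 56500 with bFGF against 61700 to 83700 without, with LUM and POSTN undetected on all arrays. Trophectoderm markers fell in 5 of 8 cases and rose in 1, with CGA, CGB3, ELF5, GATA2 and GCM1 undetected on all arrays. Of 8 tested endoderm markers 1 fell (12.5%, near the share of all genes), with overlapping values. ALB, CER1, GATA4, GATA6 and HHEX were undetected on all arrays. Of 3 tested mesoderm markers 2 fell, with GSC, HAND2, KDR and TBX6 undetected on all arrays. In such bulk samples, fewer cells of a type and less RNA per cell cannot be told apart, and the part of these markers in the results below was not tested.

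Of the 9269 genes tested, 2814 were called (30.4%), 1359 of them higher with bFGF (14.7%) and 1455 lower (15.7%). The 4 values of each side did not overlap in 2383 of the called genes (25.7% of genes tested), 1142 higher (12.3%) and 1241 lower (13.4%). Among all genes, called or not, the values of 2854 did not overlap (30.8%). Most calls were of modest size, with a median of 1.36-fold and a smallest of 1.10-fold. More than 2-fold changes were called for 144 genes that rose and 182 that fell, changes from 25% up to 2-fold for 795 and 882, and smaller changes for 420 and 391. A total of 8332 genes were detected on all 8 arrays, so that their entry into the test did not depend on bFGF, and 29.0% of them were called. In contrast, 44 called genes were detected on all 4 arrays with bFGF and on 0 without, and 56 on all 4 without and on 0 with.

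The use of 4 arrays a side gave a smaller error and more calls than 2 against 2. The median standard error of a log2 difference was 0.095 with all 8 arrays, against 0.138 in a comparison of 2 against 2. Both rest on a spread from all 8 arrays, so a smaller error with 4 arrays a side follows from the number of arrays. In the model with a mean per condition, +bFGF against −bFGF gave 1417 called genes without IL-11 (15.3%). With IL-11, +IL-11+bFGF against +IL-11 gave 1048 (11.3%), with 805 called in both and all 805 in the same direction. The differences of these 2 comparisons share no array, but their tests share a spread estimated from all 8 arrays. Fits on only the 4 arrays without IL-11 and only the 4 with it called 987 and 943 genes. Of the 1417 genes called without IL-11, 1403 (99.0%) had the same sign with IL-11, against 77.1% of all genes, and their median size was 0.69 log2 in the first and 0.56 log2 in the second comparison. The genes called with IL-11 had the same sign without it in 1046 of 1048 cases, at medians of 0.76 and 0.70 log2. With all 8 arrays, 1222 genes were called that neither comparison of 2 against 2 had called, at a median of 1.24-fold. The 1452 called genes that were not called without IL-11 had a median of 1.26-fold, and the 1362 called in both ways one of 1.55-fold.

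**Figure D1:**
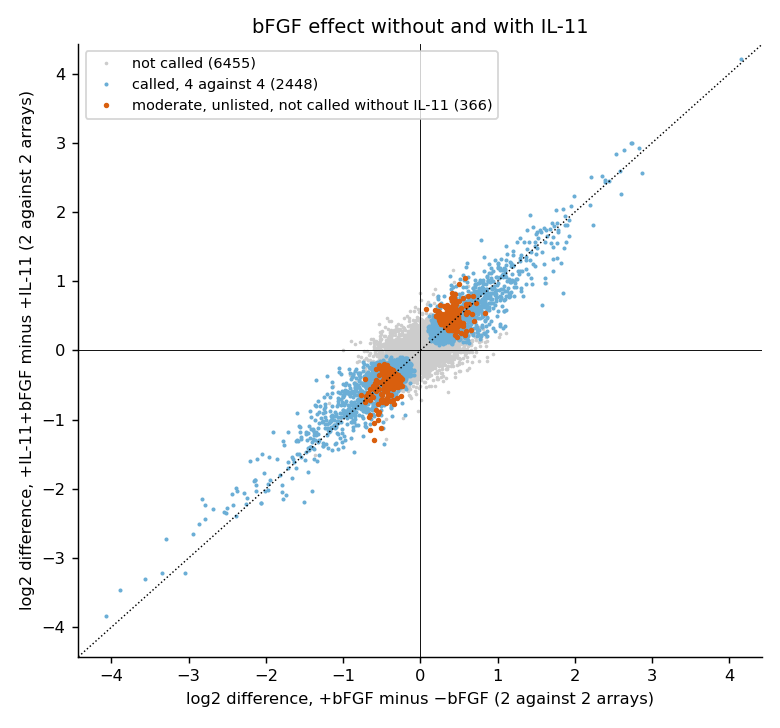
Log2 difference between arrays with and without bFGF for 9269 genes, without IL-11 on the x axis (+bFGF minus −bFGF) and with IL-11 on the y axis (+IL-11+bFGF minus +IL-11), each from 2 against 2 arrays and with no array in common. Each point is a gene, the dotted line marks equal differences, and the 366 moderate genes outside the commonly described families that were not called without IL-11 lie near the center of both arms.

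The changes named singly were sought outside the families most often described for these cells, which hold pluripotency and lineage factors, FGF, NODAL, WNT and BMP genes, early ERK targets, and cell cycle, adhesion and ribosomal protein genes, among others. Of 1384 tested genes in those families 35.8% were called, and of the other 7885 genes 29.4%. Among the largest rises of the latter were the tetraspan proteins TM4SF18 and TM4SF1, whose genes both lie on chromosome 3. Values are given in the order +bFGF replicates 1 and 2, +IL-11+bFGF replicates 1 and 2, then −bFGF replicates 1 and 2 and +IL-11 replicates 1 and 2. TM4SF18 was measured at 8.97, 8.87, 9.34 and 8.85 with bFGF and at 5.91, 6.46, 5.96 and 6.25 without. It was detected on 2 of the 4 arrays without bFGF, where its mean of 6.14 lay below the lowest detected signal, so only a bound of the change can be given. It rose at least 6.44-fold (measured log2 difference 2.86 ± 0.15, SE, adjusted p = 7.78e-07). TM4SF1, a membrane protein of endothelial and tumor cells, was at 10.34, 10.47, 11.30 and 10.15 against 8.60, 8.36, 8.69 and 9.00. Its rise was 3.74-fold (adjusted p = 6.27e-05), with the lowest of the 4 arrays with bFGF more than 1 log2 unit above the highest without.

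Several strong rises were of genes without detected signal in the absence of bFGF, for which only a lower bound of the change can be given. Bounds set the mean of the brighter side against, for each array of the dimmer side, the higher of the lowest detected signal and the value of the gene. GJA4, which encodes the gap junction protein connexin 37, was at 8.22, 7.70, 6.81 and 8.97 with bFGF and between 4.95 and 5.41 without, at least 3.20-fold higher (adjusted p = 0.000265). MMP1, the interstitial collagenase, was at 7.85, 7.88, 9.02 and 6.55 against 4.96 to 5.26, at least 2.98-fold higher (adjusted p = 0.000531). For both genes the +IL-11+bFGF replicates were the most distant pair among the arrays with bFGF, and the groups still did not overlap. FBP1, the gluconeogenic fructose-1,6-bisphosphatase, was at least 2.96-fold higher (adjusted p = 2.78e-06), HBA2, an alpha globin, at least 1.93-fold higher (2.87e-05) and LCK, a SRC family kinase best known from T cells, at least 1.69-fold higher (1.12e-05), each detected on 4 arrays with bFGF and on 0 without. The alpha globin genes are near-identical copies, so the HBA2 signal can be shared with HBA1.

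The other strong rises were of genes detected on every array. TRIML2 stood at 10.78, 10.60, 10.96 and 10.41 against 8.30, 8.66, 8.22 and 8.14, a 5.13-fold rise (adjusted p = 8.60e-07). GLIPR1L1, of the CAP family of secreted proteins, rose 5.43-fold (6.13e-06). The values of THY1 (CD90), a cell surface marker used for both stem cells and fibroblasts, were 11.66, 11.49, 11.66 and 11.51 against 9.64, 10.00, 9.57 and 9.53, a 3.72-fold rise (5.19e-07). RIPOR2 was at 9.55, 9.34, 9.35 and 9.43 against 7.48, 7.65, 7.51 and 7.64, and rose 3.59-fold with the smallest p of all the genes named here (3.52e-07). AK4, a mitochondrial adenylate kinase, rose 3.50-fold (6.22e-07). The spread within a side was at most 0.21 log2 (SD, n = 4) for THY1, RIPOR2 and AK4.

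Among the strongest falls, several genes lost detected signal when bFGF was present. ARHGAP15, which switches off the GTPase RAC, was at 6.86, 6.16, 6.27 and 7.46 with bFGF and at 9.36, 9.39, 9.70 and 9.05 without, a 6.44-fold difference of the measured means (adjusted p = 3.16e-05). It was detected on 2 of 4 arrays on the bFGF side, and the bound was 5.97-fold. SLN encodes sarcolipin, a small inhibitor of the calcium pump SERCA, and was at 5.11, 5.99, 5.46 and 5.66 against 8.39, 8.28, 8.19 and 7.79, at least 3.60-fold lower (5.32e-06). DMBX1, a homeobox gene of the developing midbrain, was at least 3.51-fold lower (4.78e-06), TTC29, of the sperm flagellum, at least 2.88-fold (4.11e-06), LIX1 at least 2.60-fold (6.13e-06) and INSC, which orients the mitotic spindle, at least 1.83-fold (2.00e-05). Each of these 5 was detected on 4 arrays without bFGF and on 0 with it.

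Several of the other strongest falls were of neural genes. NPY, the neuropeptide Y, was at 6.07, 6.05, 5.93 and 6.71 with bFGF, detected on 1 of the 4, against 8.91, 8.58, 9.15 and 8.07 without (at least 4.65-fold lower, adjusted p = 3.16e-05). CNTN2, an axonal adhesion protein, was at 7.29, 6.48, 5.94 and 8.22 against 9.10, 9.45, 8.99 and 9.96, which was the widest spread on the bFGF side among these falls (SD 0.99 log2, n = 4), and it fell 5.25-fold (0.00146, 3 of 4 arrays detected with bFGF). The LIM-only transcription cofactor LMO1 was at 6.61, 6.30, 6.56 and 6.46 against 8.77, 8.71, 8.75 and 8.40 and fell 4.51-fold (7.78e-07, 3 of 4 arrays detected with bFGF). SEZ6, a membrane protein of neurons, fell at least 3.36-fold (4.10e-06, 1 of 4 arrays detected with bFGF), and MUSTN1, a small nuclear protein of muscle and cartilage, at least 4.73-fold (2.38e-06, 1 of 4). RSPO3, a secreted protein that strengthens WNT signals, was detected on all arrays, at 7.44, 7.95, 7.54 and 8.22 against 9.45, 10.21, 9.86 and 9.97, and fell 4.23-fold (2.43e-05). The neural markers given above fell in the same arrays.

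**Figure D2:**
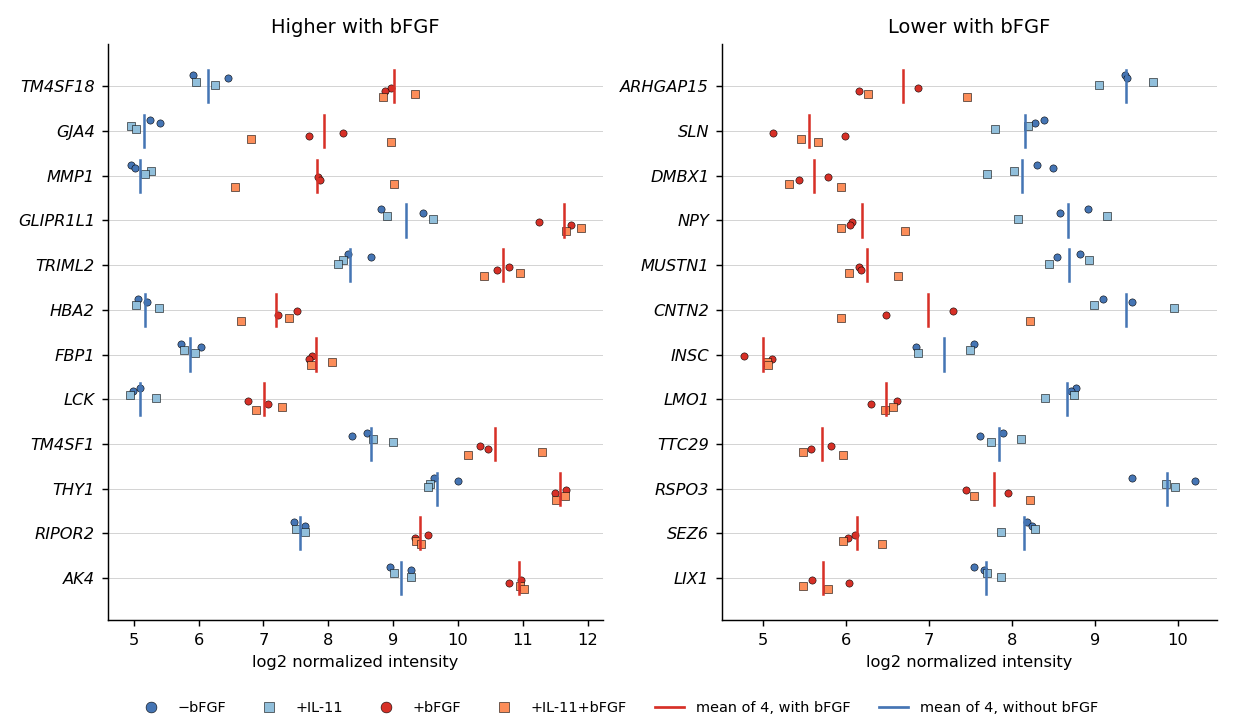
Log2 normalized intensity (x axis) of the 12 largest rises (left) and the 12 largest falls (right) outside the commonly described families, 1 point per array, with circles for arrays without IL-11, squares for arrays with IL-11, and vertical lines for the mean of the 4 arrays on each side. In each gene the red and blue points are separated, and GJA4, MMP1 and CNTN2 have the widest spread with bFGF.

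Moderate changes, in which the higher side exceeded the lower by 25% to 2-fold, were called for 1237 genes that were detected on all 8 arrays and did not overlap (13.3% of genes tested), 594 that rose (6.41%) and 643 that fell (6.94%). Of these, 1023 were outside the commonly described families, 494 higher and 529 lower. The rises with the smallest p had a narrow spread. IRF2BPL, a transcriptional regulator of the nucleus, stood at 11.44, 11.43, 11.31 and 11.45 with bFGF and at 10.57, 10.44, 10.56 and 10.43 without, an SD of 0.07 log2 on each side (n = 4), and rose 1.87-fold (adjusted p = 4.10e-06). REXO2, a nuclease that clears very short RNA, was at 12.23, 12.22, 12.38 and 12.33 against 11.63, 11.63, 11.69 and 11.69 and rose 1.55-fold (8.95e-06).

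The other 8 leading moderate rises were all of adjusted p between 8.77e-06 and 2.00e-05. PPM1B, a serine and threonine phosphatase of the PP2C family, rose 1.84-fold, and a second probe of the gene rose too (log2 1.30). RASL11B, a RAS-like GTPase, rose 1.78-fold. The rise of TNFRSF12A (FN14), the receptor of the cytokine TWEAK, was 1.84-fold, from 9.30, 9.25, 9.23 and 9.31 to 10.01, 10.16, 10.30 and 10.14. FXYD5 (dysadherin), which binds the sodium pump, rose 1.73-fold, SPATS2L 1.73-fold, FAM162A, a mitochondrial protein induced in low oxygen, 1.72-fold, CMAS, which activates sialic acid for transfer to glycans, 1.55-fold, and TIMP1, an inhibitor of matrix metalloproteinases, 1.57-fold. No value of any of these genes overlapped between the sides.

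Among the 10 leading moderate falls were regulators of growth, chromatin and neural adhesion. MXD4, a MAX partner that opposes MYC, was at 10.89, 10.97, 10.87 and 11.03 with bFGF and at 11.74, 11.67, 11.75 and 11.75 without, a 1.72-fold fall (adjusted p = 6.72e-06). The histone variant gene MACROH2A2 fell 1.60-fold (2.19e-05), from 13.31, 13.39, 13.21 and 13.21 to 12.57, 12.63, 12.51 and 12.71. ROR1, a receptor of WNT5A, fell 1.93-fold (2.14e-05), CNTNAP2, a neurexin family protein of axons, 1.83-fold (1.84e-05), and CEMIP2, which breaks down hyaluronan, 1.99-fold (1.27e-05). MDK encodes midkine, a heparin-binding growth factor. Its fall was the smallest of the 10 at 1.40-fold, and with values of 13.88, 13.89, 13.82 and 13.85 against 14.40, 14.33, 14.39 and 14.28 its adjusted p was 3.05e-05, with 3 further probes lower by 0.34 to 0.45 log2, of which 2 passed the test over all probes. KLHDC8B fell 1.86-fold, VASN, a cell surface protein that binds TGF-beta, 1.65-fold, EML1, a microtubule-binding protein, 1.74-fold, and ACTA1, the skeletal muscle alpha-actin, 1.98-fold, with adjusted p between 2.35e-05 and 3.32e-05.

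Of the 1237 moderate genes, 428 had not been called between +bFGF and −bFGF in the model with a mean per condition. In neither comparison of 2 against 2 had 295 been called. Outside the commonly described families the first number was 366, with 165 rises and 201 falls. PTP4A3, a phosphatase also called PRL-3, was at 8.19, 8.26, 8.35 and 8.29 against 7.80, 7.84, 7.61 and 7.59. Its adjusted p in limma was 0.051 without IL-11, 0.0056 with IL-11 and 0.00122 over all 8 arrays, for a 1.48-fold rise. The log2 difference was 0.40 without IL-11 and 0.72 with it. KPNA2, an importin that carries proteins into the nucleus, was at 7.63, 7.82, 8.22 and 8.24 against 7.33, 7.24, 7.41 and 7.41 (1.55-fold, 0.00132 after 0.054). VSNL1, a calcium sensor of neurons, rose 1.75-fold (0.00139), SDHA, the catalytic subunit of succinate dehydrogenase, 1.35-fold (0.00162), LYAR, a nucleolar protein, 1.30-fold (0.00167), ZFAND6 1.41-fold and ARHGAP4 1.53-fold (both 0.00177), and TNFRSF10B, a receptor of the death ligand TRAIL, 1.28-fold (0.00187). For all 8 the groups of 4 did not overlap. The 2 further TNFRSF10B probes rose by 0.65 and 0.64 log2, more than the probe used, and the latter was detected on 4 arrays. All 8 were already called in the comparison with IL-11 (limma adjusted p 0.0050 to 0.0229), where each measured difference was larger than without IL-11. Both follow largely from the choice of genes with a small p over all 8 arrays and no call without IL-11. No effect of IL-11 can be read from them.

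Falls that were gained in this way included scaffolds and synaptic proteins. AMER1, a membrane scaffold of the APC and beta-catenin complex, was at 9.46, 9.58, 9.48 and 9.61 with bFGF and 9.88, 9.83, 10.07 and 10.07 without (1.35-fold, adjusted p = 0.00132 after 0.051 without IL-11). SYNDIG1, which takes part in building excitatory synapses, fell 1.65-fold (0.00132), and LAYN (layilin), a hyaluronan receptor, 1.73-fold (0.00187). PALLD (palladin), an actin-binding protein, was at 10.77, 11.25, 10.95 and 10.96 against 11.71, 11.41, 11.68 and 12.07 and fell 1.66-fold (0.00181). The sides of PALLD came within 0.2 log2 of each other, between +bFGF replicate 2 and −bFGF replicate 2. FAM53C fell 1.32-fold, LRRC49 1.42-fold, MLLT10, a chromatin reader, 1.31-fold and ZBED4 1.32-fold, with adjusted p between 0.00155 and 0.00195. Each of these falls was already called in the comparison with IL-11 (limma adjusted p 0.0076 to 0.0239), where the measured difference was larger than without IL-11. The same choice of genes favors this pattern, and no effect of IL-11 can be read from it.

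**Figure D3:**
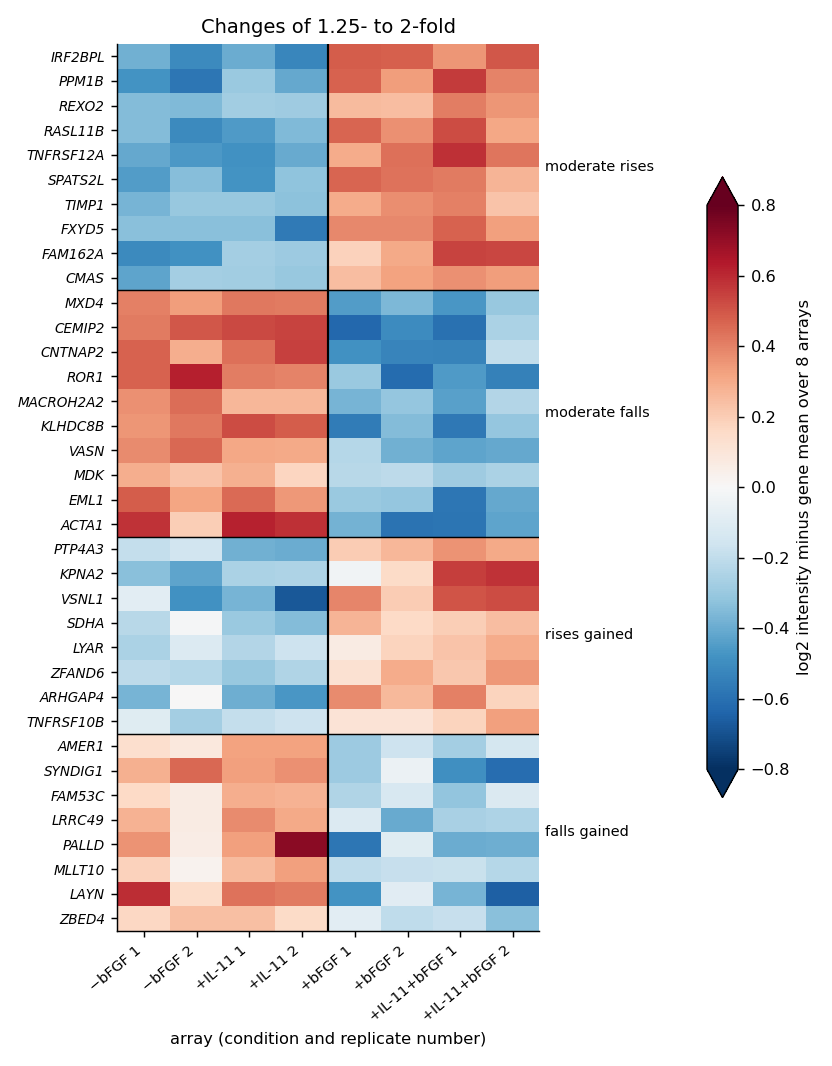
Log2 intensity minus the mean of the gene over 8 arrays (color) for 36 genes with moderate changes (rows) on the 8 arrays (columns, without bFGF on the left of the line, with bFGF on the right). Rises and falls gained are those not called between +bFGF and −bFGF, though all that are shown were called with IL-11. In each row the 4 arrays on one side of the line are all higher than those on the other.

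No gene passed the test of a bFGF effect that differs between arrays with and without IL-11 (limma interaction, 0 of 9269 called, 176 genes or 1.90% at an unadjusted p under 0.05, smallest adjusted p = 0.998). The 3 genes with the smallest unadjusted interaction p differed between −bFGF and +IL-11 more than between +bFGF and +IL-11+bFGF. CSNK1A1, a casein kinase of the WNT pathway, was at 9.61 and 9.32 in −bFGF, 9.98 and 10.01 in +IL-11, 9.97 and 9.95 in +bFGF and 9.87 and 9.73 in +IL-11+bFGF. CXXC4, an inhibitor of WNT signaling, was at 7.31 and 7.44, 6.76 and 6.77, 6.74 and 6.44, and 6.80 and 6.98 in the same order, and TIPRL at 9.64 and 9.57, 9.97 and 9.96, 9.94 and 10.03, and 9.88 and 9.72. The 3 genes did not pass the test of the bFGF effect (adjusted p = 0.422, 0.191 and 0.469). IL-11 itself was called for 0 genes in the same fit (507 at an unadjusted p under 0.05, smallest adjusted p = 0.851).

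Gene lists are given by the number of members called, to be read against the 14.7% of all genes that rose and the 15.7% that fell, and by the median log2 difference, which was -0.01 over all genes. Of 55 tested ribosome biogenesis factors, 20 rose and 0 fell (36.4% and 0%), with a median of 0.14 log2. Of the 20 that rose, 16 did not overlap between the sides. The changes were small. NIP7, needed for maturation of ribosomal RNA, was at 10.72, 10.69, 10.74 and 10.70 with bFGF and at 10.42, 10.33, 10.42 and 10.46 without, a 1.23-fold rise (adjusted p = 0.00264). EMG1, which methylates the RNA of the small subunit, rose 1.31-fold (0.00119), RPF2 1.26-fold (0.00187) and WDR12, of the complex that processes the large subunit, rose by 0.32 log2 (0.00291). The number that rose was 20 to 27 under other scalings of the arrays. It was 11 when −bFGF replicate 1, +IL-11 replicate 1 or +IL-11+bFGF replicate 1 was left out, 13 when +IL-11+bFGF replicate 2 was left out, and 9 when +bFGF replicate 2 was left out, and 1 factor fell when +IL-11 replicate 1 or +bFGF replicate 2 was left out.

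Translation factors rose in 13 of 54 cases and fell in 5, with a median of 0.04 log2. EIF2S2, a subunit of the factor that brings the initiator tRNA, was at 9.46, 9.25, 9.30 and 9.29 against 8.73, 8.82, 8.71 and 8.64 (1.51-fold, adjusted p = 0.000216), and EIF2B2, of its exchange factor, rose 1.33-fold (0.000931). EIF2AK2 (PKR), a kinase that phosphorylates the same initiation factor and is induced by interferon, rose 1.38-fold (0.000687). With median scaling 20 factors rose and 2 fell, and with single arrays left out 9 to 13 rose. The number that fell was 2 when +bFGF replicate 2 or +IL-11+bFGF replicate 1 was left out, and 3 when +IL-11 replicate 1, +bFGF replicate 1 or +IL-11+bFGF replicate 2 was.

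Enzymes of the pentose phosphate, serine and one-carbon pathways, which supply ribose, glycine and one-carbon units for nucleotides, rose in 13 of 23 cases and fell in 2 (56.5% and 8.70%, median 0.21 log2). TKT, the transketolase, was at 13.85, 13.76, 13.82 and 13.59 against 13.19, 13.26, 13.20 and 13.11, a 1.48-fold rise (adjusted p = 7.03e-05). The serine hydroxymethyltransferases SHMT2 of the mitochondrion and SHMT1 of the cytosol rose 1.29-fold (0.000503) and 1.32-fold (0.00227), and a further SHMT1 probe differed by only 0.05 log2. MTHFD1L, a mitochondrial folate enzyme, rose 1.27-fold (0.00221). When +bFGF replicate 1 or +IL-11+bFGF replicate 1 was left out, 8 of the 23 rose. The 2 that fell, PGLS and MAT2A, overlapped between the sides, and 0 fell under median scaling or with the authors' normalization.

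Polyamine and creatine synthesis genes rose in 9 of 17 cases and fell in 2 (52.9% and 11.8%, median 0.20 log2). The steps of the polyamine pathway did not move together. SMS, the spermine synthase, was at 12.35, 12.20, 12.29 and 12.18 against 11.61, 11.56, 11.77 and 11.66 (1.52-fold higher, adjusted p = 6.70e-05). ODC1, ornithine decarboxylase and the first enzyme of the pathway, was at 12.66, 12.58, 12.43 and 12.58 against 12.96, 13.11, 13.04 and 13.02 (1.39-fold lower, 0.000193). Of the creatine genes, GATM, which makes the precursor of creatine, rose 1.58-fold (0.00056) and CKMT1A, a mitochondrial creatine kinase with the near-identical copy CKMT1B, 1.77-fold (7.62e-05). TCA cycle enzymes rose in 10 of 25 cases and fell in 2 (40% and 8.00%, median 0.13 log2), with ACO1 1.37-fold higher (0.00045) and the isocitrate dehydrogenase subunit IDH3A 1.63-fold higher (0.0012). PC, the pyruvate carboxylase that refills the cycle, fell 1.53-fold (0.00227), at 7.42, 7.74, 7.41 and 7.19 against 8.02, 8.34, 7.93 and 7.93. A further PC probe, detected on 6 arrays, was lower by 0.33 log2 and did not pass the test over all probes (0.191). When +bFGF replicate 1 was left out, 6 TCA cycle enzymes rose.

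Of 33 tested matrix proteases, inhibitors and serpins, 8 rose and 4 fell, and 2 fell when −bFGF replicate 1 or 2, +IL-11 replicate 1 or +bFGF replicate 1 was left out. Urokinase and its receptor, which activate proteases at the cell surface, were among those that rose. PLAU (urokinase) was at 10.70, 10.49, 10.77 and 10.76 against 9.78, 9.19, 9.68 and 9.24, a 2.31-fold rise (adjusted p = 8.72e-05). Its receptor PLAUR was at 8.76, 8.93, 8.90 and 8.65 against 7.59, 7.55, 7.70 and 7.64, a 2.28-fold rise (9.64e-06), and 2 further PLAUR probes rose by 1.248 and 1.366 log2. Of the metalloproteinase inhibitors, TIMP4 was detected only with bFGF and at least 2.01-fold higher (0.000102), beside the rise of TIMP1 given above. The 200 bases before the start of PLAUR are shown because the AP-1 factors below ERK are known to act on this gene. They lie on the minus strand at chr19:43670170-43670369 (RefSeq, GRCh38.p14), and the capitals mark the match to the AP-1 motif TGANTCA, sought on both strands.
PLAUR: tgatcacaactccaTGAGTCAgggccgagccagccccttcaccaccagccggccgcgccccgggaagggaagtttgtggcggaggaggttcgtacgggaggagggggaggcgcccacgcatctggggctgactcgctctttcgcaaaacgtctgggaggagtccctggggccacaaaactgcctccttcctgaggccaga
The match lies from base -186 to -180, counted back from the start site, and 5.38% of 35116 promoter windows of this length hold the motif at least once. A match of letters does not show that a factor binds there.

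Metallothioneins, small proteins that bind zinc and copper, rose for 5 of 6 tested genes, the exception being MT1F with a difference of 0.00 log2. MT1X was at 11.41, 11.33, 11.25 and 11.27 with bFGF and at 9.97, 10.31, 10.25 and 10.44 without, a 2.10-fold rise (adjusted p = 2.00e-05). MT2A was at 10.46, 10.68, 10.62 and 10.25 against 9.23, 9.68, 9.51 and 9.64, 1.98-fold higher (0.000164). MT1G rose 1.70-fold (0.00143). The genes of this family are near-identical, so their probes can share signal. In their list, with the S100 proteins and annexins, 6 of 23 rose and 4 fell. Of those that fell 1 did not overlap, and 1 or 2 fell when +IL-11 replicate 2, +bFGF replicate 1 or +IL-11+bFGF replicate 2 was left out. The promoters of MT1X and MT2A are shown because metallothioneins are known for repeated metal response elements, with the core TGCNCNC marked in capitals on either strand, in the 200 bases before the start at chr16:56682270-56682469 and chr16:56608384-56608583 (RefSeq, GRCh38.p14, plus strand).
MT1X: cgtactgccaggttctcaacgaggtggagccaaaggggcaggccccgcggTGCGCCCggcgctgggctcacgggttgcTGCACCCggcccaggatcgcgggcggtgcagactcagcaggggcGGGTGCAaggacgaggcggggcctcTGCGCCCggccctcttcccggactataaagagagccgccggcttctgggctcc
MT2A: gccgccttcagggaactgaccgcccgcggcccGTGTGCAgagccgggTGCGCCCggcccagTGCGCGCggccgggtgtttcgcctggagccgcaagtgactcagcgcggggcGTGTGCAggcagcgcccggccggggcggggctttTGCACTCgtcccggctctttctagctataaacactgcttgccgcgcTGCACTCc
MT1X held 4 matches and MT2A 6. Of all windows 43% hold at least 1 match, 0.988% at least 4 and 0.0854% at least 6. MT2A also has 1 AP-1 match, from base -104 to -98, which overlaps none of the capitals.

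Interferon response genes rose in 6 of 18 cases and fell in 3 (median 0.03 log2), and 0 or 1 fell under median scaling or when any array other than +IL-11 replicate 2 or +IL-11+bFGF replicate 2 was left out. TRIM22, an antiviral ubiquitin ligase, was at 10.20, 9.93, 10.08 and 9.78 against 8.82, 8.89, 8.93 and 8.92 (2.15-fold, adjusted p = 1.61e-05). IFI16, a sensor of DNA in the nucleus, rose 1.73-fold (0.000383), and PLSCR1, a phospholipid scramblase, 1.67-fold (0.000566). Among the gap junction and tetraspanin genes 4 of 22 rose and 4 fell. Against the rise of GJA4, GJA1 (connexin 43), the main connexin of embryonic stem cells, fell 1.27-fold, at 12.05, 12.19, 12.06 and 12.25 against 12.42, 12.46, 12.58 and 12.49 (0.00162). CD9, a tetraspanin used as a stem cell surface marker, rose 2.58-fold (9.96e-05).

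Of the BCL2 family and caspases, 4 of 22 rose and 6 fell, and the number that rose was 2 when any array other than −bFGF replicate 1 was left out. The members that act as triggers of cell death moved in both directions. PMAIP1 (NOXA), a BH3-only trigger, was at 9.30, 9.50, 9.78 and 9.49 against 8.23, 8.50, 8.50 and 8.46, a 2.14-fold rise (adjusted p = 2.00e-05). BMF, another BH3-only protein, was at 6.56, 6.58, 6.60 and 6.85 against 8.04, 7.74, 8.08 and 7.62, a 2.33-fold fall (7.80e-05), with a second probe lower by 1.32 log2. BIK was detected on 0 arrays with bFGF and on 3 of 4 without. It was at least 1.16-fold lower (measured log2 difference -1.10, adjusted p = 0.000692).

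The relay through which bFGF itself acts changed in a few members. MAP2K1 (MEK1) was at 10.82, 10.54, 10.75 and 10.63 against 9.99, 10.02, 10.11 and 10.06, a 1.56-fold rise (adjusted p = 0.00011). MAPK3 (ERK1), the kinase below it, fell 1.23-fold (0.00826), and the docking protein GAB2 fell 1.69-fold (0.00111). Of 22 tested genes from RAS to ERK, 2 rose and 6 fell (9.09% and 27.3%, median -0.04 log2), and 1 rose when the first replicate of any condition was left out. Heparan sulfate genes, whose product is the co-receptor of bFGF, rose in 4 of 25 cases and fell in 6, and 2 rose when +IL-11 replicate 2, +bFGF replicate 2 or either +IL-11+bFGF array was left out. GPC3, a glypican that carries heparan sulfate, was at 10.03, 9.67, 9.56 and 10.23 with bFGF and between 10.61 and 11.05 without, and fell 2.06-fold (0.000491), and NDST1, which starts sulfation of the chain, fell 1.39-fold (0.00345). HS3ST1, which adds a rare sulfate group to the chain, was detected on 3 arrays with bFGF and on 0 without, at least 1.17-fold higher (0.00195). Of 15 tested ligands and receptors of the EGF, PDGF, VEGF and KIT families 4 rose and 3 fell. PDGFA, a PDGF ligand, rose by 0.86 log2 (0.000293), the ligand NRG1 fell by 0.78 log2 (0.000733), and the receptors KIT and ERBB3 fell 1.45-fold (0.000758) and 1.37-fold (0.00118). A further ERBB3 probe, detected on 4 arrays, was lower by 0.38 log2 and did not pass the test over all probes (0.0568). Of 15 tested TGF-beta genes 5 fell and 1 rose, and 2 fell when −bFGF replicate 1, +IL-11 replicate 2 or +IL-11+bFGF replicate 1 was left out and 3 when +IL-11 replicate 1 was. RNA of the ligand TGFB3 was detected on 1 array with bFGF and on all 4 without and fell at least 1.93-fold (7.80e-05). TGFBR2, the receptor that binds it, rose 1.72-fold (0.000529), and LTBP4, which stores the latent ligand in the matrix, fell 1.30-fold (0.00881).

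RAB GTPases, which direct vesicle traffic, rose in 9 of 45 cases and fell in 7 (20% and 15.6%, median 0.08 log2). RAB17, a RAB GTPase of epithelial trafficking, was at 9.76, 9.84, 9.77 and 9.97 against 8.46, 8.76, 8.32 and 8.54 (2.49-fold higher, 7.86e-06), and RAB7B was detected on 4 arrays without bFGF and on 0 with, at least 1.46-fold lower (1.89e-05). RGS proteins and G protein subunits rose in 9 of 34 cases and fell in 7. The number that fell was 2 when −bFGF replicate 2 or +bFGF replicate 1 was left out, 3 when +bFGF replicate 2 was, and 4 when +IL-11 replicate 2 or +IL-11+bFGF replicate 1 was. Of the subunits, GNA14 was at least 1.93-fold higher (1.84e-05) and GNG4 1.55-fold higher (0.000463).

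The Hedgehog pathway had 9 tested members, of which 5 fell and 0 rose (55.6% and 0%, median -0.33 log2). GAS1, a co-receptor of the ligand, was at 7.49, 7.48, 7.53 and 7.84 with bFGF and at 8.84, 8.53, 8.82 and 8.79 without, a 2.24-fold fall (adjusted p = 2.05e-05). GLI3, the transcription factor that mostly represses the targets, was at 8.48, 7.85, 7.77 and 8.25 against 9.14, 9.32, 9.01 and 8.94 and fell 2.02-fold (0.00048). BOC, a further co-receptor, fell 1.63-fold (0.011), and DISP1, which releases the ligand from its source cell, 1.47-fold (0.00218). SMO, the signal transducer, also fell (1.26-fold), with overlapping values. GLI1, which serves as a readout of the pathway, differed by 0.13 log2 (0.44) and PTCH1 by -0.31 log2 (0.126). The number that fell was 5 or 6 when each array in turn was left out. The neural crest and neuroectoderm markers fell in the same arrays.

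Homeobox genes of the LIM, IRX, PBX, POU and related families fell in 8 of 16 cases and rose in 2 (50% and 12.5%, median -0.33 log2). PKNOX2, a partner of PBX proteins, was at 7.24, 7.48, 7.21 and 7.35 against 8.85, 8.65, 8.88 and 8.51 (2.64-fold lower, adjusted p = 9.89e-06). PBX3 fell 1.54-fold (4.18e-05), and OTX2, a forebrain and epiblast factor that is also on the neuroectoderm list, 2.50-fold (7.78e-07) with all 3 of its probes lower. SOX15, a SOX factor of stem cells and muscle, fell 2.32-fold (0.000969), among 5 of 13 SOX genes that fell and 2 that rose. The nuclear receptors RXRA, the partner of retinoic acid receptors, and NR2F1 (COUP-TF1), a neural regulator, fell 1.80-fold (2.13e-05) and 1.79-fold (0.00416). For NR2F1 the +IL-11+bFGF replicate 2 array, at 9.31, came close to the lowest array without bFGF, at 9.44.

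Chromatin genes moved in both directions within Polycomb, where 4 of 21 rose and 5 fell. PHC1, a subunit of Polycomb complex PRC1, was at 10.92, 10.68, 10.89 and 10.56 against 9.33, 9.53, 9.25 and 9.59 and rose 2.52-fold (adjusted p = 9.67e-06). JARID2, which guides complex PRC2, was at 12.60, 12.20, 12.26 and 12.32 against 11.25, 11.49, 11.23 and 11.24 and rose 2.06-fold (1.40e-05). Against these, the PRC1 subunits CBX2 and BMI1 fell 1.37-fold (0.000112) and 1.54-fold (0.000241). Of 42 chromatin remodelers and histone deacetylases, 10 fell and 1 rose (23.8% and 2.38%, median -0.13 log2). RCOR2, a partner of the demethylase LSD1, fell 1.42-fold (0.000206), HDAC6, a deacetylase of tubulin, 1.50-fold (0.00277) and CHD7 1.27-fold (0.00544). SIRT5, a mitochondrial deacylase, rose 1.30-fold (0.00653). Further SIRT5 probes were higher by 0.26 and 0.23 log2 and did not pass the test over all probes (0.172 and 0.137). The number that fell was 8 to 10 under other scalings. It was 5 when +bFGF replicate 2 was left out and 6 when −bFGF replicate 2, +IL-11 replicate 1, +bFGF replicate 1 or +IL-11+bFGF replicate 1 was.

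Kinesins, dyneins and ciliary genes fell in 12 of 60 cases and rose in 4 (20% and 6.67%, median -0.07 log2), and 1 rose when +IL-11 replicate 2, +bFGF replicate 1 or +IL-11+bFGF replicate 1 was left out and 2 when −bFGF replicate 1, +bFGF replicate 2 or +IL-11+bFGF replicate 2 was. DYNC1I1, a dynein intermediate chain of neurons, was at 7.26, 7.31, 7.08 and 7.73 against 8.40, 8.22, 8.49 and 8.23 (1.99-fold lower, adjusted p = 0.000386). The intraflagellar transport genes IFT140, IFT122 and IFT172, which carry cargo along the cilium where Hedgehog signals are received, fell 1.63-fold (0.00235), 1.35-fold (0.00253) and 1.46-fold (0.00266), and IFT140 was detected on 2 of the 4 arrays with bFGF. IFT122 was at 8.43, 8.60, 8.66 and 8.67 with bFGF and at 9.05, 9.05, 8.97 and 9.02 without, and its second probe was lower by 0.36 log2. Phospholipid and sphingolipid enzymes fell in 13 of 48 cases and rose in 6 (27.1% and 12.5%, median -0.10 log2). ENPP2 (autotaxin), which makes lysophosphatidic acid, was at 7.63, 7.61, 7.15 and 8.18 against 8.68, 8.87, 8.73 and 8.84 (2.20-fold lower, 0.000892). PLCL2, a phospholipase C-like protein without catalytic activity, fell 1.60-fold (7.17e-05). PLA2G12B was detected on 0 arrays with bFGF and on 4 without, at least 1.17-fold lower (measured log2 difference -1.10, adjusted p = 0.000437).

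**Figure D4:**
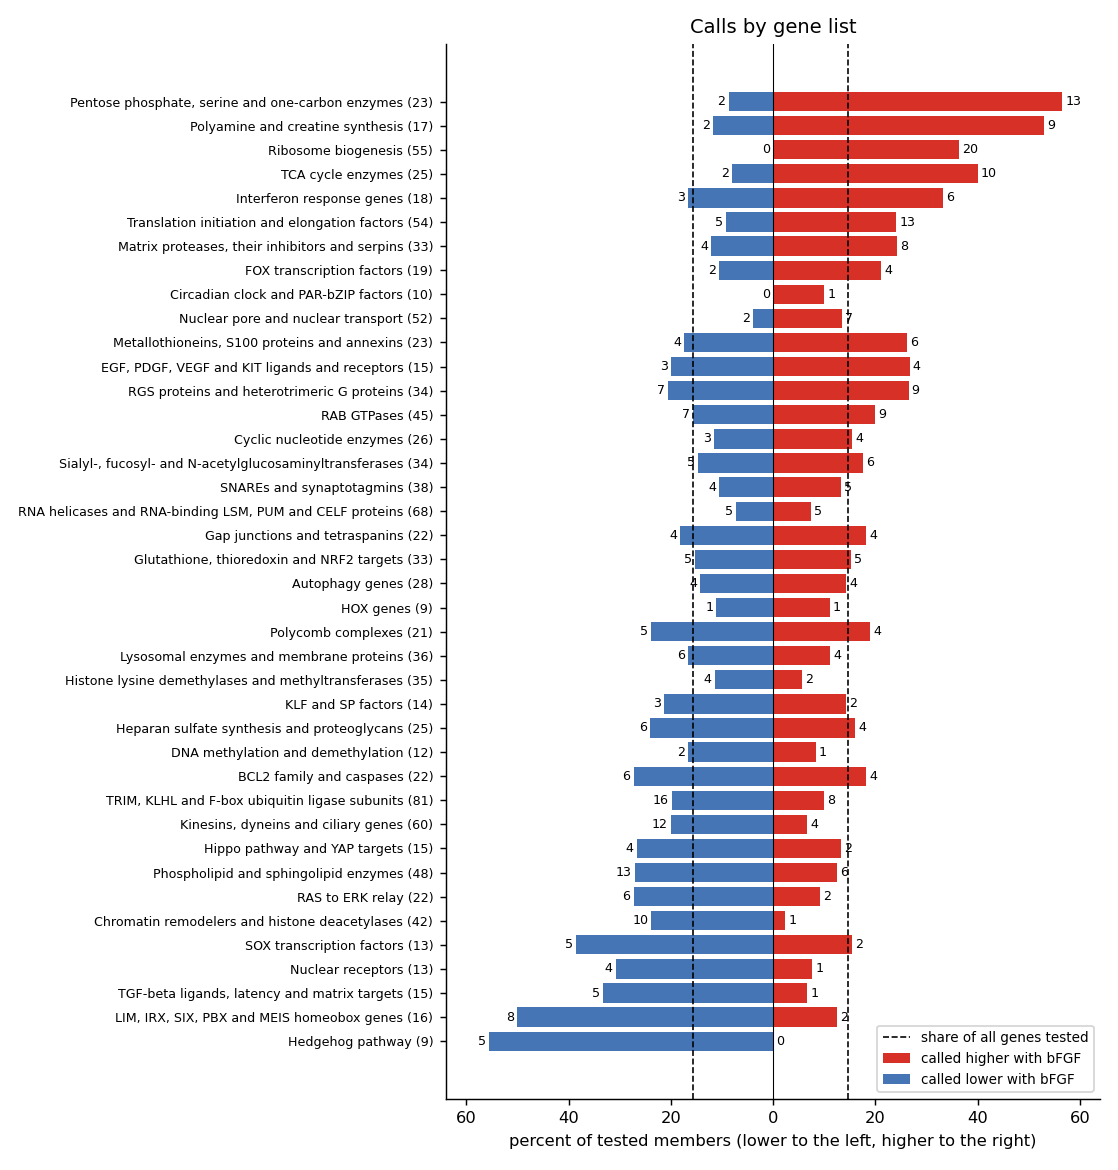
Percent of the tested members of 40 gene lists (number tested in parentheses) that were called higher with bFGF (bars to the right) or lower (bars to the left), with the number of genes at the end of each bar. The dashed lines mark the 14.7% and 15.7% of all genes tested, and the ribosome biogenesis, Hedgehog and circadian clock lists have calls in 1 direction only, the last with 1 gene.

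**Figure D5:**
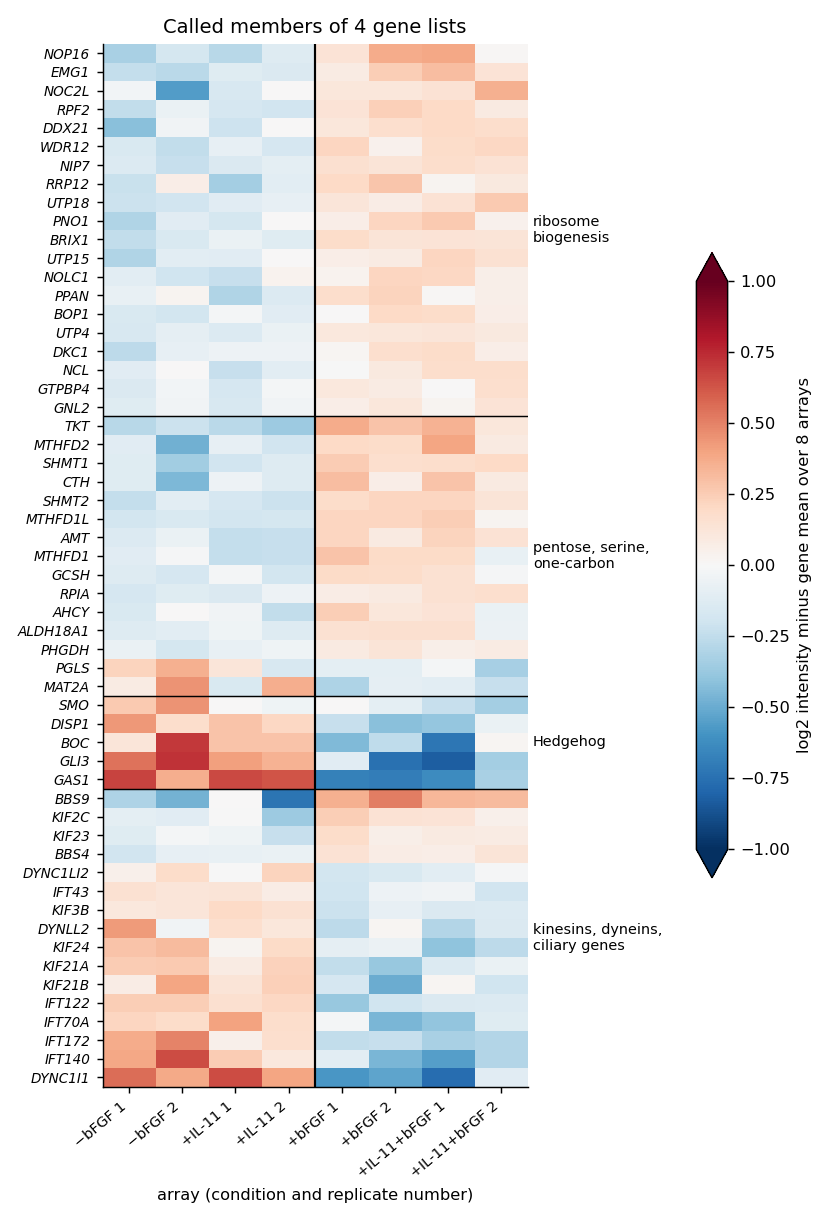
Log2 intensity minus the mean of the gene over 8 arrays (color) for the called members (rows) of the ribosome biogenesis, pentose, serine and one-carbon, Hedgehog, and kinesin, dynein and ciliary lists on the 8 arrays (columns, without bFGF on the left of the line). The 20 ribosome biogenesis genes are higher on the right in the mean, 16 of them without overlap, and by less than the falls of GAS1, GLI3 and DYNC1I1.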

How the data were processed

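Total RNA of 8 samples was hybridized to Illumina human-8 BeadChips version 3. The deposited table holds, for 24526 probes, the non-normalized intensity on each array and a detection p-value, which the authors' software computed against the negative control beads of the same array. A second deposited table holds intensities that the authors normalized by rank invariant scaling after background subtraction. The methods name BeadStudio for this and the submitters' processing notes GenomeStudio, and the version of the latter and the genome build of the probes are not given in the sources used here. No column of the authors' own comparisons was used.

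Background was corrected by normexp with the negative controls inferred from the detection p-values (neqc of limma 3.58.1 in R 4.3.3, offset 16), and the arrays were then quantile normalized on the log2 scale. A probe entered if, in any 1 of the conditions, its detection p stayed below 0.01 in each replicate (11668 probes), and for each of 9269 genes the probe with the highest mean was used. Gene names came from the RefSeq tables for GRCh38.p14, through which 21813 probes could be linked to a gene record. The model had bFGF and IL-11 as terms (5 residual degrees of freedom), moderated with an intensity trend, and p-values were adjusted by Benjamini-Hochberg over all genes. A model with a mean per condition gave the bFGF effect without IL-11, with IL-11, and their difference. The scripts were tested on simulated data.

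The members and lists were chosen with earlier results of these data known, and no p-value was adjusted within a list. The results of 1 gene list are not reported here. The genes named were, outside the families already described for this experiment, the 12 largest rises and falls, the 10 moderate rises and falls with the smallest p, and the 8 of each with the smallest p that were not called between +bFGF and −bFGF, then up to 4 members of each list with the smallest p, 3 genes of the interaction, and POU5F1, SOX2 and NANOG. SMO, GLI1, PTCH1, PGLS, MAT2A and MT1F were added after their values were seen. A gene was given a bound where 0 arrays of a side detected it or where its mean on that side lay below the mean detection floor. ARHGAP15, whose mean lay above that floor, was given both its measured fold and a bound. Promoter windows of 200 bases were read from the RefSeq table, which held 111 of the 141 genes named by the rule, PDGFA and NRG1 not counted. The main count was recomputed from the table normalized by the authors, with uncorrected background, with scaling to the array median, with stricter and no detection filters, on single probes, without the trend or the IL-11 term, with a replicate block, with a mean per condition, with the methods' t-test, on the 4 arrays with or without IL-11 alone, and leaving out each array. The alternatives for gene lists and for the effects with and without IL-11 were chosen after seeing the data.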

Additional observations from a re-analysis of the deposited data

Results flagged for a closer look

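Among 282 sets of 4 values (141 genes, each with a bFGF side and a side without), 16 held a single array far from the other 3 (5.67%), and chance alone sets apart about 1 in 20 such groups. All values are log2 normalized intensities. On the side with bFGF, FBP1 was at 8.06 on +IL-11+bFGF replicate 1 against 7.71 to 7.75 on the others, and IRF2BPL at 11.31 on the same array against 11.43 to 11.45. On +IL-11+bFGF replicate 2, CNTNAP2 was at 12.81 against 12.47 to 12.52, MTHFD1L at 10.64 against 10.83 to 10.86, GAS1 at 7.84 against 7.48 to 7.53 and BMF at 6.85 against 6.56 to 6.60.

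On the side without bFGF, 5 of the values were from +IL-11 replicate 2. LMO1 was at 8.40 there against 8.71 to 8.77, FXYD5 at 10.89 against 11.12, SOX2 at 12.12 against 11.97 to 11.99, GPC3 at 10.61 against 10.998 to 11.05, and PBX3 at 12.13 against 11.96 to 11.98. On −bFGF replicate 2, ACTA1 was at 11.48 against 11.86 to 11.90, GAS1 at 8.53 against 8.79 to 8.84 and JARID2 at 11.49 against 11.23 to 11.25. PMAIP1 was at 8.23 on −bFGF replicate 1 against 8.46 to 8.50, and EIF2AK2 at 10.15 on +IL-11 replicate 1 against 10.30 to 10.31. With the exception of SOX2, these genes were named only because the sides were separated on all 8 arrays. Their separation therefore does not test the effect of the distant array.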

How the results depend on the processing

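The 2814 genes called for bFGF became 2821 with the authors' normalized table (2639 shared), 2821 without background correction, 2878 with median scaling (2602 shared), 2422 with detection on all 8 arrays, 2788 without a detection filter, 2621 without the trend, 2836 without the IL-11 term, 2580 with a mean per condition, 2241 with the methods' t-test and 2107 to 2600 with an array left out. The share of calls that were higher was 48.3%, and 55.5% under median scaling. With only the 4 arrays without IL-11 it was 987 genes, and with only the 4 with IL-11 943. The 1237 moderate changes became 585 and 584 in those fits of fewer arrays, and 1150 to 1391 with an array left out. Interaction calls were 0 in limma in every setting run, with 101 to 741 genes at an unadjusted p under 0.05.

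Within the model with a mean per condition, the 1417 genes called without IL-11 were 604 to 1293 with an array left out (713 for −bFGF replicate 2, 623 for +bFGF replicate 1, 604 for +bFGF replicate 2), and the 1048 with IL-11 were 401 to 1120 (448 and 416 for the +IL-11 replicates, 401 for +IL-11+bFGF replicate 1). With an array left out SOX2 ranged from -0.0008049 (+IL-11 replicate 1, adjusted p = 0.994 in limma) to 0.04879 log2, and it was 0.0872 with the authors' table and 0.1164 with median scaling, not called in any setting. For the other called genes that were run, all calls held with each array left out and under each scaling. PDGFA, NRG1 and the genes added after their values were seen were not run. Of 2734 gene and setting pairs 56 lost the call, 32 with only the arrays without IL-11, 23 with only those with IL-11, and 1, BOC, in the methods' t-test. Deviations from the group means correlated between arrays of the same number at 0.102 to 0.195 in 5 of the 6 pairs of conditions and at -0.0562 between +bFGF and +IL-11+bFGF. Since not every pair was above 0.1 and no label ties the numbers, the arrays were not treated as paired. With the replicate block 2931 genes were called for bFGF, 1248 moderate, 1648 without IL-11 and 1211 with IL-11. Genes near background are limited by signal, and for genes undetected on a side the fold was given only as a bound.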
